A study of Rattus norvegicus with 24 samples.

Results

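Mitochondrial carriers of the Slc25 family, together with the uncoupling proteins Ucp1, Ucp2 and Ucp3, were followed in the rat kidney after a period without blood flow. The members were every probe whose annotated symbol began with Slc25a or was one of the 3 uncoupling proteins, 38 probes of 36 genes on the array. Of these, 36 probes of 34 genes were detected on at least 3 of 24 arrays and were tested, out of 14390 tested probes. Slc25a41 was detected on 0 arrays and Slc25a47 on 1 array, so neither was tested. RNA came from the renal cortex and the renal medulla of Wistar rats of 3 months of age. Rats were either sham operated or had 20 min of bilateral renal ischemia followed by 6, 24 or 120 h of reperfusion, which gives 8 groups of 3 arrays each. The labels number the replicates without saying whether each is a different rat. The errors and p-values therefore describe array-to-array spread, part of which may be technical. No genetic change, drug or cell sort is given for any group, and each array holds bulk tissue.

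Slc25 carriers are small proteins of the inner mitochondrial membrane, each of which exchanges one or a few solutes (nucleotides, phosphate, dicarboxylates, amino acids, acylcarnitines or cofactors) between the cytosol and the matrix. They set what the respiratory chain, the urea and heme pathways and fatty acid oxidation can use. Proximal tubule cells and thick limb cells of the kidney are rich in mitochondria and depend on oxidative metabolism for salt and solute transport. Uncoupling proteins belong to the same family. Ucp1 lets protons back into the matrix and produces heat in brown fat, and Ucp2 is found in many tissues, immune cells among them.

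All values below are log2 normalized intensities, and all differences are on the same log2 scale, given as the difference ± its standard error (SE) from a limma fit over all tested probes. A member is called when its Benjamini-Hochberg adjusted p over all tested probes of that comparison is under 0.05. A call is said to be lost without an array when leaving out that 1 array ended it. Where 3 values are given for a group they are replicates 1, 2 and 3, and a level of one probe cannot be set against that of another. Each array detected between 11173 and 12710 probes, with a median raw intensity between 67.3 and 98.1, and the 3 arrays per group limit the precision.

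Cell type markers differed between sham and injured arrays in both regions. The mean of 12 proximal tubule markers in cortex was 12.68, 12.53 and 12.77 in sham, 11.44, 11.21 and 11.70 at 6 h, 11.52, 10.84 and 11.11 at 24 h and 12.15, 11.38 and 11.89 at 120 h. In medulla it was 12.25, 9.87 and 11.32 in sham, 7.94, 8.55 and 7.08 at 6 h, 8.45, 7.57 and 6.75 at 24 h and 9.50, 9.52 and 8.63 at 120 h. All 12 of these markers were called lower in medulla at 6 h and at 24 h, and 5 were at 120 h. In cortex 4, 3 and 1 of them were called lower at 6, 24 and 120 h. On each array between 8 and 12 of the 12 were detected. Sham medulla replicate 1 stood apart. Its root mean square distance over all tested probes was 0.407 to the sham cortex mean and 0.575 to the other sham medulla arrays, while replicates 2 and 3 were closer to each other's group (0.450 and 0.357) than to sham cortex (0.631 and 0.510). The mean of 8 collecting duct markers was 7.26, 8.61 and 9.37 in sham medulla and 7.49 to 7.64 in sham cortex, so replicate 1 of the sham arrays labelled medulla lay below sham cortex there. Of 9 macrophage markers, 4, 4 and 4 were called higher in cortex and 5, 7 and 6 in medulla at 6, 24 and 120 h. Their mean ran from 6.42 to 6.87 in sham cortex, 7.08 to 7.63 at 6 h, 7.02 to 7.94 at 24 h and 7.66 to 8.54 at 120 h. In medulla the same mean ran from 6.90 to 7.09 in sham, 8.0 to 8.36 at 6 h, 8.03 to 8.58 at 24 h and 8.31 to 8.80 at 120 h. In medulla at 24 h the podocyte marker Nphs1 differed from sham by -3.13. The distal tubule markers Slc12a3, Calb1 and Klk1 differed by -3.12, -2.56 and -4.62, and all were called. Podxl, Wt1 and Trpv5 were not called there. In cortex at 24 h Nphs1, Slc12a3, Calb1 and Klk1 were not called (-0.62, -1.02, -0.98 and -0.33), while Wt1 was called lower and Trpv5 higher. In bulk tissue, fewer cells of a type, less RNA per cell and a different share of cortex in a medulla piece cannot be told apart. The part of these markers in the carrier results was not tested.

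**Figure D1:**
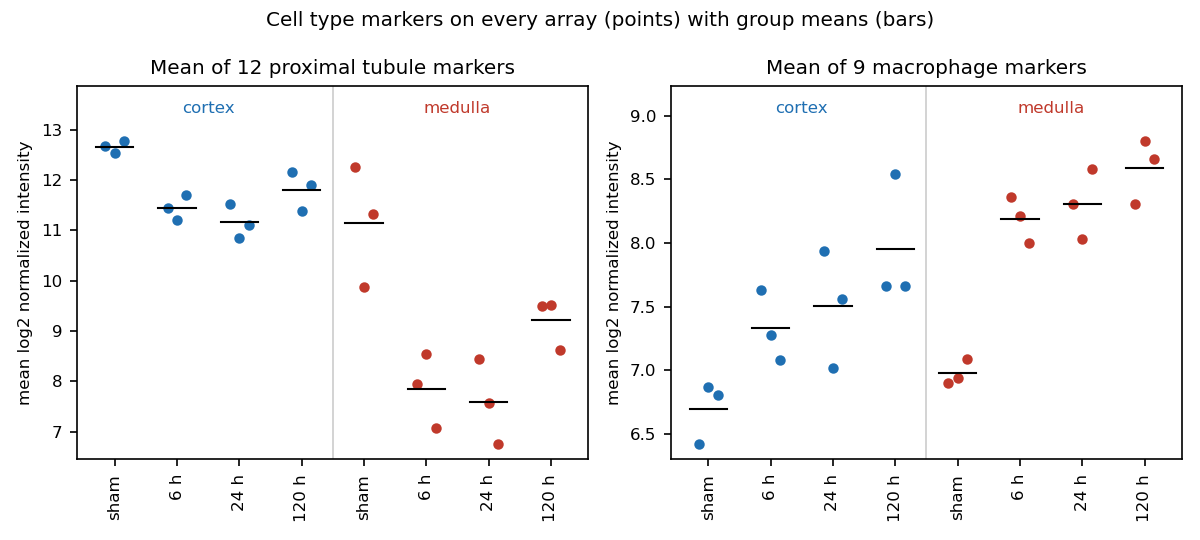
Mean log2 normalized intensity (vertical axis) of 12 proximal tubule markers and of 9 macrophage markers on every array, by region and reperfusion time; points are arrays and bars are means of 3 arrays. The proximal tubule mean is 12.53 to 12.77 in sham cortex and 6.75 to 8.45 in medulla at 24 h, and sham medulla spreads from 9.87 to 12.25.

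More carriers fell than rose at every time in both regions. In cortex at 6 h, 6 of 36 member probes were called lower, against 10.8% of all tested probes, and 2 were called higher, against 8.87%. At 24 h in cortex, 11 were lower (all probes 13.6%) and 3 higher (12.6%). At 120 h in cortex, 6 were lower (3.2%) and 0 were higher (2.45%). Taken as shares, the members called lower in cortex were 16.7%, 30.6% and 16.7% at the 3 times. In medulla at 6 h, 13 members were called lower (all probes 16.6%) and 2 higher (17.3%). At 24 h in medulla, 15 were lower (15.5%) and 4 higher (17.2%), and at 120 h, 8 were lower (6.88%) and 1 higher (7.69%). The members called lower in medulla were therefore 36.1%, 41.7% and 22.2%. In either direction, all probes were called at 19.6%, 26.2% and 5.65% in cortex and 33.8%, 32.7% and 14.6% in medulla. The median member difference was -0.06, -0.18 and -0.08 in cortex and -0.43, -0.47 and -0.38 in medulla at 6, 24 and 120 h, while the median of all tested probes lay between -0.004 and 0.042. At the level of genes, with the brightest probe standing for Slc25a30, 13 of 34 genes were called in none of the 6 comparisons, 2 in all 6, 2 in 5 and 3 in 4. The same tally was not made over all tested genes, and the comparisons of a region share their sham arrays. It therefore cannot be read as particular to the members. The 3 injured and 3 sham arrays did not overlap for 15, 23 and 10 member probes in cortex (all probes 32%, 44.6% and 27.6%) and for 20, 26 and 15 in medulla (42.7%, 47.1% and 35%).

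Several of these counts depended on single arrays. Without 6 h cortex replicate 2 the cortex count at 6 h was 5 in place of 8, and the highest count with 1 array left out was 12. The cortex count at 24 h, 14 with all arrays, was 10 without sham cortex replicate 1. The cortex count at 120 h, 6 with all arrays, was 1 without sham cortex replicate 1 or without 120 h cortex replicate 2, and 3 without sham cortex replicate 2 or 120 h cortex replicate 3. The medulla count at 6 h, 15 with all arrays, was 11 without 6 h medulla replicate 3 and 13 without sham medulla replicate 1. The medulla count at 24 h, 19 with all arrays, was 10 without sham medulla replicate 1, 12 without 24 h medulla replicate 2 and 11 without 24 h medulla replicate 3. The medulla count at 120 h, 9 with all arrays, was 3 without sham medulla replicate 1, 2 without 120 h medulla replicate 2 and 3 without 120 h medulla replicate 3. Counts with an array left out were not made over all tested probes, so these shifts cannot be read as particular to the members.

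**Figure D2:**
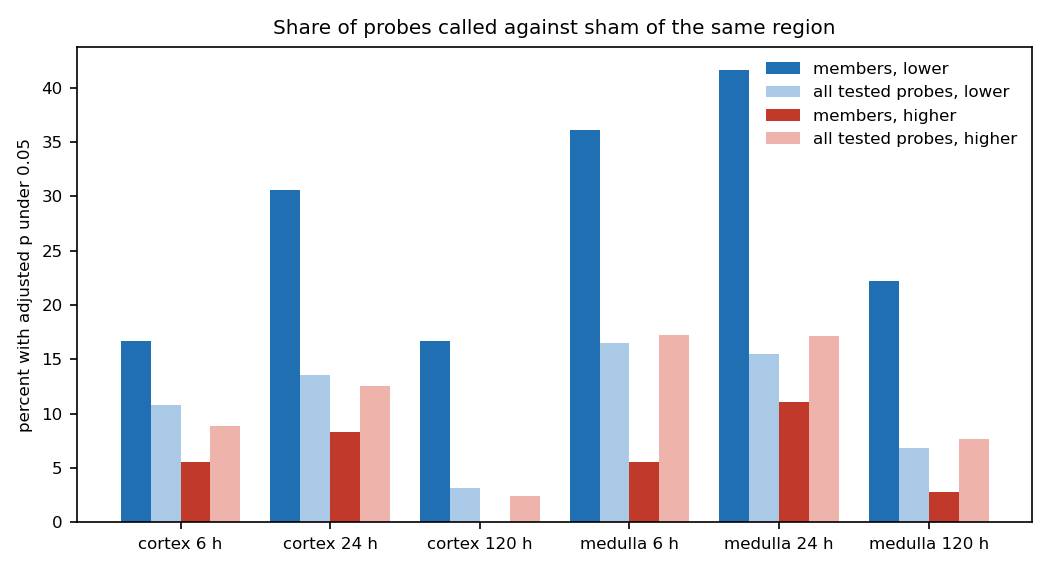
Percent of probes (vertical axis) called lower or higher than sham of the same region, for the 36 member probes and for all 14390 tested probes, at each region and time. The members' share called lower lies above that of all probes in all 6 comparisons, for example 41.7% against 15.5% in medulla at 24 h, and their share called higher lies below it.

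**Figure D3:**
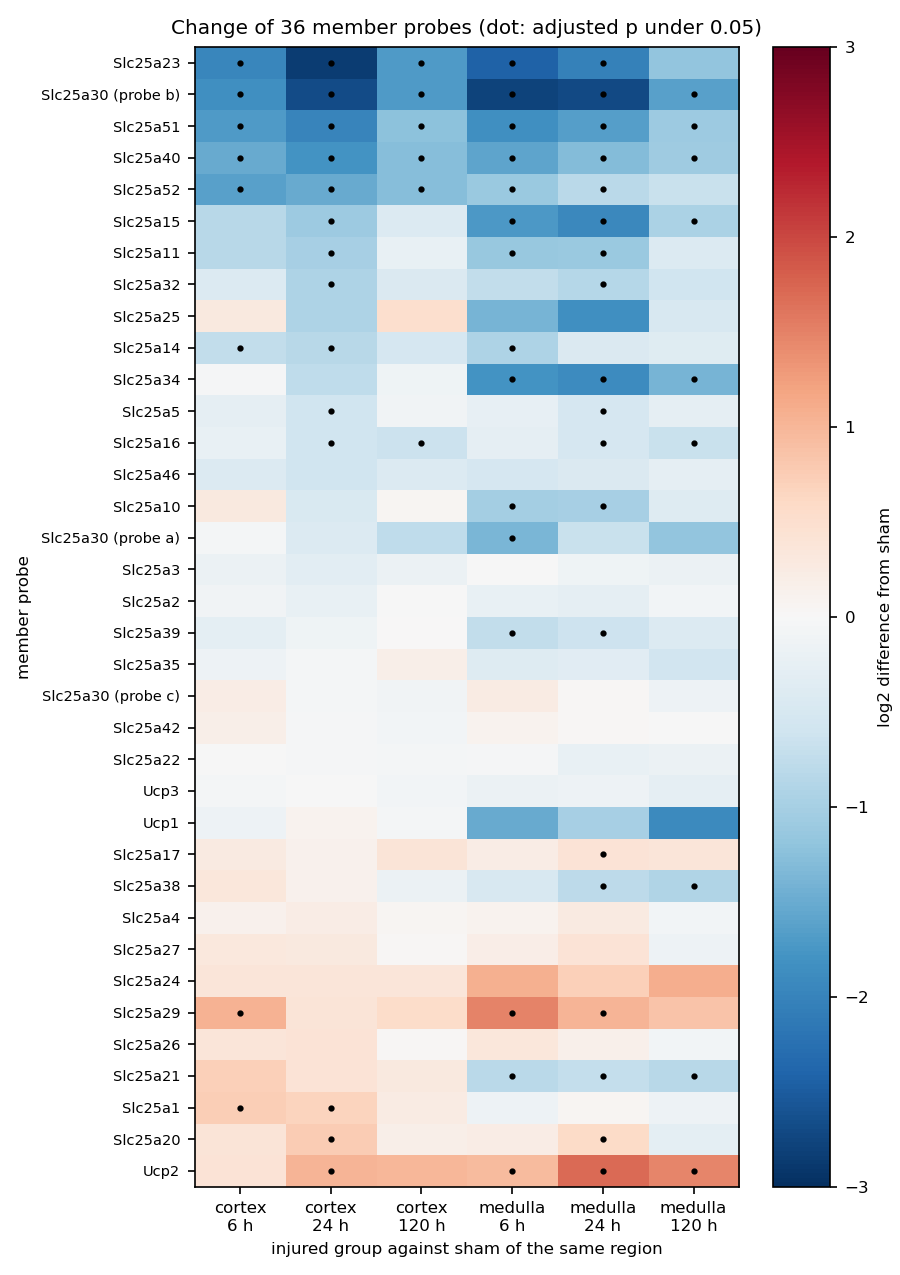
Log2 difference from sham of the same region (colour) for each of the 36 member probes (rows) in the 6 injured groups (columns); a dot marks an adjusted p under 0.05, and Slc25a30 has 3 probes, a being the brightest. The 5 rows at the top, Slc25a23, probe b of Slc25a30, Slc25a51, Slc25a40 and Slc25a52, are blue in all 6 columns, and Ucp2 at the bottom is red in all 6.

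Among the carriers of cofactors, Slc25a51, which carries NAD+ into the matrix, fell in all 6 comparisons. In cortex its level was 10.36, 9.85 and 9.90 in sham, 8.17, 7.39 and 9.49 at 6 h, 7.83, 7.76 and 8.55 at 24 h and 8.90, 8.62 and 8.91 at 120 h. In medulla its level was 10.15, 9.28 and 9.82 in sham, 7.96, 8.05 and 7.69 at 6 h, 8.31, 8.20 and 7.76 at 24 h and 8.64, 8.61 and 8.70 at 120 h. Every injured array lay below every sham array of its region, and 6 h cortex replicate 3 lay nearest to sham. The differences were -1.69 ± 0.36, -1.99 ± 0.36 and -1.23 ± 0.36 in cortex (adjusted p = 0.00288, 0.000489 and 0.0484) at 6, 24 and 120 h. In medulla they were -1.85 ± 0.36, -1.66 ± 0.36 and -1.10 ± 0.36 (adjusted p = 0.000742, 0.00177 and 0.0452). The 120 h calls were close to the threshold: the one in cortex was lost without any single sham cortex array or any single 120 h cortex array, and the one in medulla without sham medulla replicate 1 or 3 or any single 120 h medulla array.

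Slc25a52, a close relative of Slc25a51 that carries NAD+ in human cells, was called lower in 5 of the 6 comparisons. Its level in cortex was 8.14, 7.92 and 7.87 in sham, 6.01, 5.99 and 7.07 at 6 h, 6.13, 6.28 and 6.97 at 24 h and 6.29, 6.91 and 6.93 at 120 h. On the medulla arrays it stood at 7.70, 7.08 and 7.11 in sham, 6.44, 5.86 and 6.27 at 6 h, 6.45, 6.52 and 6.52 at 24 h and 6.58, 6.77 and 6.55 at 120 h. No injured array reached the lowest sham array of its region. The cortex differences were -1.62 ± 0.27, -1.52 ± 0.27 and -1.27 ± 0.27 (adjusted p = 0.000498, 0.000469 and 0.00853). In medulla Slc25a52 fell at 6 h (-1.11 ± 0.27, adjusted p = 0.00398) and 24 h (-0.80 ± 0.27, adjusted p = 0.0287), and the 120 h difference of -0.67 ± 0.27 was not called. The 24 h medulla call was lost without sham medulla replicate 1 or any single 24 h medulla array. The sequence of the Slc25a52 and Slc25a51 probes was not compared here, so binding of one transcript to the other's probe was not tested.

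Slc25a16, linked to coenzyme A in mitochondria, was called lower at 24 and 120 h. In cortex it was 7.80, 7.75 and 7.47 in sham, 7.54, 7.50 and 7.32 at 6 h, 6.95, 7.17 and 7.08 at 24 h and 7.35, 6.79 and 6.96 at 120 h. For medulla the values were 7.39, 7.71 and 7.42 in sham, 7.27, 7.27 and 7.17 at 6 h, 7.17, 6.79 and 7.04 at 24 h and 6.85, 6.54 and 7.09 at 120 h. The 24 h and 120 h arrays were below sham in both regions, and the 6 h arrays overlapped sham in cortex only. The cortex difference at 24 h was -0.61 ± 0.16 (adjusted p = 0.00969), and the 120 h difference was -0.64 ± 0.16 (adjusted p = 0.0264). In medulla the differences were -0.51 ± 0.16 at 24 h (adjusted p = 0.023) and -0.68 ± 0.16 at 120 h (adjusted p = 0.0105). The 120 h cortex call was lost without sham cortex replicate 1 or 2 or 120 h cortex replicate 2 or 3, the 24 h medulla call without sham medulla replicate 2 or 24 h medulla replicate 2 or 3 and the 120 h medulla call without 120 h medulla replicate 2.

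The other cofactor carriers had fewer calls. Slc25a32, the folate carrier of mitochondria, fell at 24 h by 0.93 in cortex and 0.86 in medulla (adjusted p = 0.027 and 0.0328). The cortex call was lost without sham cortex replicate 2 or 3 or 24 h cortex replicate 2, and the medulla call without sham medulla replicate 1 or 2 or 24 h medulla replicate 2. Slc25a17, a cofactor carrier of peroxisomes, was 0.42 ± 0.16 higher in medulla at 24 h with an adjusted p of 0.0481, and that call was lost without any one of the 6 arrays compared. Slc25a42, a coenzyme A carrier, was not called, with differences from -0.08 to 0.18.

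Slc25a40, one of a pair of mitochondrial glutathione carriers, also fell in all 6 comparisons. Its cortex values were 8.41, 7.65 and 8.03 in sham, 5.96, 6.12 and 7.52 at 6 h, 6.14, 5.90 and 6.66 at 24 h and 6.45, 6.64 and 7.18 at 120 h. Its medulla values were 7.81, 7.45 and 7.35 in sham, 5.87, 6.11 and 5.87 at 6 h, 6.48, 5.81 and 6.45 at 24 h and 6.40, 6.43 and 6.62 at 120 h. All 18 injured arrays were below the sham arrays of their region, with 6 h cortex replicate 3 again nearest to sham. The cortex differences were -1.5 ± 0.32, -1.80 ± 0.32 and -1.28 ± 0.32 (adjusted p = 0.00322, 0.000483 and 0.0244). Those in medulla were -1.59 ± 0.32, -1.29 ± 0.32 and -1.06 ± 0.32 (adjusted p = 0.0011, 0.00503 and 0.0341). At 120 h the cortex call was lost without sham cortex replicate 1 or 3 or 120 h cortex replicate 1 or 2, and the medulla call without sham medulla replicate 1 or 2 or any single 120 h medulla array. Its paralogue Slc25a39 fell in medulla at 6 h (-0.74 ± 0.16, adjusted p = 0.00205) and 24 h (-0.63 ± 0.16, adjusted p = 0.00665). In cortex its differences ran from -0.30 to 0.02 and none was called, and the reference lists 8 Slc25a39 pseudogenes whose transcripts the probe might also bind.

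**Figure D4:**
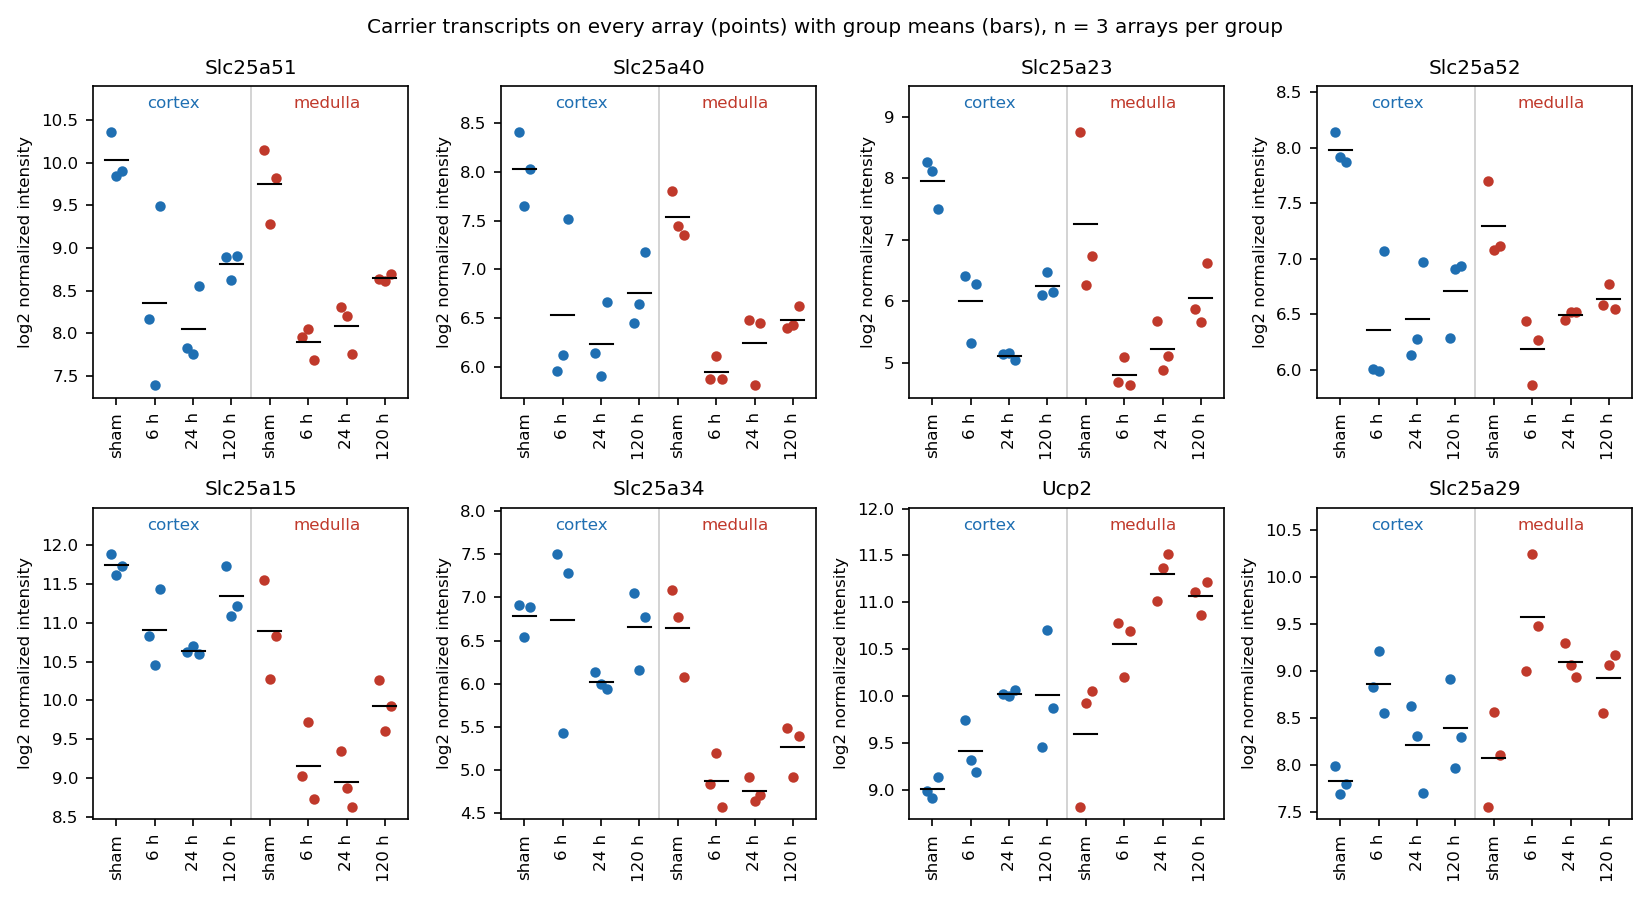
Log2 normalized intensity (vertical axes, each with its own range) of 8 carrier transcripts on every array by region and reperfusion time; points are arrays and bars are means of 3 arrays. Slc25a51, Slc25a40 and Slc25a52 lie below sham on every injured array, Slc25a34 lies below sham on every injured medulla array, and Ucp2 lies above sham on every injured array.

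Promoter sequence is shown for 5 of the called members, so that those that fell can be read beside those that rose. Each run gives 100 bases before the transcription start, 5′ to 3′ on the strand of the gene, from RefSeq on rat build GRCr8. Capitals mark a GC box, GGGCGG or its complement CCGCCC. The windows are chr5:64459005-64459104 (minus strand), chr4:26631384-26631483 (minus), chr9:1985366-1985465 (minus), chr1:164251273-164251372 (plus) and chr6:133517198-133517297 (minus).
Slc25a51: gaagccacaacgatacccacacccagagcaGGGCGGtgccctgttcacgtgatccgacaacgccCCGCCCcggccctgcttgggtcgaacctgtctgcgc
Slc25a40: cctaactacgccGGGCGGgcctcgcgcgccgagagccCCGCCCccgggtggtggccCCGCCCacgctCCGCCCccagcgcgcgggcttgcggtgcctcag
Slc25a23: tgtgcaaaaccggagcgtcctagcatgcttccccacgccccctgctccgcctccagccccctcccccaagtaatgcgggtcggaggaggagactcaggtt
Ucp2: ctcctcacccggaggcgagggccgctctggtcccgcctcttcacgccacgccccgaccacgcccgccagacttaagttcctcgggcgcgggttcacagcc
Slc25a29: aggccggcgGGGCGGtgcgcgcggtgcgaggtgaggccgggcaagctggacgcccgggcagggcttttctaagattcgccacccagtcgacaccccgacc
The windows of Slc25a51 and Slc25a40, which fell, hold 2 and 4 boxes. That of Slc25a23, which also fell, holds 0, as does that of Ucp2, which rose, and that of Slc25a29, which rose, holds 1. Promoters of 29 of the 34 genes were matched, as 250 bases before to 50 after the start. In that longer window a GC box on either strand was found in 22 of 29 members (75.9%) and in 33.1% of all 33469 promoters, and the median GC content was 61.0% for members and 51.7% for all. The core site of NRF1, a regulator of nuclear genes for mitochondrial proteins, spelled GCATGCGC, was found in 0 of 29 and in 2.47% of all promoters. The estrogen-related receptor element TCAAGGTCA was found in 0 of 29 and in 0.433% of all. At rates this low, 29 promoters are too few for 0 matches to be told from the share of all promoters. Only these exact spellings were searched. The GC box was chosen after the other motifs had been searched.

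Of the nucleotide carriers, Slc25a23, a calcium-sensitive carrier that exchanges ATP-Mg for phosphate, showed the largest fall of any member in cortex. Its cortex values were 8.27, 8.12 and 7.50 in sham, 6.42, 5.32 and 6.29 at 6 h, 5.15, 5.16 and 5.05 at 24 h and 6.11, 6.48 and 6.16 at 120 h. Its medulla values were 8.75, 6.26 and 6.74 in sham, 4.69, 5.10 and 4.64 at 6 h, 5.69, 4.88 and 5.12 at 24 h and 5.87, 5.67 and 6.62 at 120 h, and only 1 of the 3 arrays at 6 h in medulla detected it, so the 6 h level there is at the floor of the assay. Cortex sham and injured arrays did not overlap. In medulla they overlapped at 120 h, and sham medulla replicate 1 was far above replicates 2 and 3. The cortex differences were -1.95 ± 0.45, -2.84 ± 0.45 and -1.71 ± 0.45 (adjusted p = 0.00497, 0.000155 and 0.0295). In medulla they were -2.44 ± 0.45 at 6 h (adjusted p = 0.00052), -2.02 ± 0.45 at 24 h (adjusted p = 0.00218) and -1.19 ± 0.45 at 120 h, which was not called. With undetected arrays raised to the lowest detected level of their array, a setting chosen after the data were seen, the 6 h medulla difference was -2.28 (adjusted p = 0.00109). Without sham medulla replicate 1 the 24 h medulla difference was -1.27 (adjusted p = 0.0113). The 120 h cortex call was lost without sham cortex replicate 1 or 2 or any single 120 h cortex array.

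The paralogues of Slc25a23 were not called, and the difference between paralogues was not tested. Slc25a24 had differences of 0.35 to 0.36 in cortex and 0.71 to 1.08 in medulla. Slc25a25 was bright but varied widely within every group, from 10.27 to 12.88 in sham cortex and from 10 to 12.94 in sham medulla. Its largest difference, -1.83 ± 0.98 in medulla at 24 h, had an adjusted p of 0.166.

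Of the ADP/ATP exchangers, which carry ATP out of the matrix, Slc25a5 was called and Slc25a4 was not. Slc25a4, the isoform of heart and muscle, was in cortex 12.41, 12.43 and 12.03 in sham, 12.50, 12.62 and 12.11 at 6 h, 12.48, 12.49 and 12.55 at 24 h and 12.36, 12.32 and 12.37 at 120 h. In medulla it was 12.46, 13.05 and 12.65 in sham, 12.86, 12.86 and 12.77 at 6 h, 12.82, 12.99 and 13.15 at 24 h and 12.64, 12.57 and 12.68 at 120 h. The 24 h cortex arrays lay just above sham, the other groups overlapped sham, and no difference from sham was called (-0.09 to 0.27). Slc25a5, the isoform linked to proliferating cells, was in cortex 14.37, 14.41 and 14.41 in sham, 14.24, 13.79 and 14.34 at 6 h, 13.88, 13.74 and 13.75 at 24 h and 14.32, 14.08 and 14.46 at 120 h. The medulla values were 14.50, 14.52 and 14.42 in sham, 14.29, 14.27 and 14.14 at 6 h, 14.16, 14.01 and 13.76 at 24 h and 14.34, 14.10 and 14.23 at 120 h. Its group mean was lowest at 24 h in both regions, and the 24 h arrays lay below all sham arrays. It fell by 0.61 in cortex (adjusted p = 0.00394) and by 0.51 in medulla (adjusted p = 0.0111) at 24 h, and the medulla call was lost without 24 h medulla replicate 3. In the same 24 h groups 5 of 6 proliferation markers were called higher. Slc25a5 lies close to the top of the normalized scale, 14.78, where differences are compressed, and the reference lists 9 Slc25a5 pseudogenes. The phosphate carrier Slc25a3 was not called, with differences from -0.31 to -0.01.

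Ucp2 was the member that rose most often. In cortex its level was 8.99, 8.91 and 9.14 in sham, 9.74, 9.32 and 9.19 at 6 h, 10.02, 10 and 10.06 at 24 h and 9.46, 10.70 and 9.87 at 120 h. On the medulla arrays it stood at 8.82, 9.93 and 10.05 in sham, 10.78, 10.20 and 10.69 at 6 h, 11.01, 11.37 and 11.52 at 24 h and 11.11, 10.87 and 11.22 at 120 h. Every injured array was above every sham array of its region. The cortex difference was 1.02 ± 0.29 at 24 h (adjusted p = 0.0154), and those of 0.41 ± 0.29 at 6 h and 1.00 ± 0.29 at 120 h were not called. Medulla differences were 0.96 ± 0.29, 1.70 ± 0.29 and 1.47 ± 0.29 (adjusted p = 0.0168, 0.000345 and 0.0037). The 6 h medulla call was lost without sham medulla replicate 1 or 6 h medulla replicate 1 or 3, and without sham medulla replicate 1 the difference was 0.57 (adjusted p = 0.133). In the same groups 4 to 7 of the 9 macrophage markers were called higher, while the means of Ptprc and Mrc1 were below sham in cortex at 6 and 24 h. The part of these markers in the Ucp2 result was not tested.

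Slc25a14, a brain-rich relative of the uncoupling proteins, was a dim transcript that fell at the early times. In cortex it was 6.38, 6.29 and 6.22 in sham, 6.06, 4.74 and 5.89 at 6 h, 5.42, 5.18 and 5.76 at 24 h and 5.74, 5.67 and 5.94 at 120 h. In medulla it was 6.34, 5.79 and 6.13 in sham, 5.35, 5.22 and 4.90 at 6 h, 5.69, 5.59 and 5.66 at 24 h and 5.62, 6.03 and 5.52 at 120 h. Injured arrays did not overlap sham, except at 120 h in medulla. The called differences were -0.73 ± 0.25 at 6 h (adjusted p = 0.0486) and -0.84 ± 0.25 at 24 h in cortex (adjusted p = 0.019) and -0.93 ± 0.25 at 6 h in medulla (adjusted p = 0.00823). The 6 h cortex call was lost without any single sham cortex array or 6 h cortex replicate 2, where the difference without 6 h cortex replicate 2, which did not detect it, was -0.32. With undetected arrays raised as for Slc25a23, the 6 h cortex difference was -0.65 and not called (adjusted p = 0.052). The 24 h cortex call was lost without sham cortex replicate 1 or 24 h cortex replicate 1 or 2.

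Slc25a30, first described as a kidney mitochondrial carrier, has 3 probes that disagreed. On the second probe the cortex level was 11.07, 10.11 and 9.90 in sham, 8.28, 7.74 and 9.53 at 6 h, 7.29, 8.03 and 7.71 at 24 h and 8.78, 8.46 and 8.74 at 120 h. On the same probe the medulla level was 10.82, 10.25 and 9.85 in sham, 7.51, 8.08 and 7.01 at 6 h, 8.26, 7.36 and 7.20 at 24 h and 8.70, 8.63 and 8.68 at 120 h. All injured arrays were below sham there. The differences were -1.84 ± 0.40, -2.68 ± 0.40 and -1.70 ± 0.40 in cortex (adjusted p = 0.00372, 0.000103 and 0.0165). In medulla they were -2.78 ± 0.40, -2.70 ± 0.40 and -1.64 ± 0.40 (adjusted p = 8.69e-05, 0.000107 and 0.0117). Its 120 h calls were lost without sham cortex replicate 1 or 120 h cortex replicate 2, and without sham medulla replicate 1. The brightest probe, which stands for the gene in the counts of genes, was called only in medulla at 6 h (-1.37 ± 0.44, adjusted p = 0.0211), and that call was lost without sham medulla replicate 2 or 6 h medulla replicate 3. The remaining, dim probe was not called. Slc25a27, another relative, was not called, with differences from -0.16 to 0.41.

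Ucp1 was near background in cortex and was detected on every medulla array, while Ucp3 was near background in both regions. Ucp1 in cortex was 4.55, 4.98 and 4.81 in sham, 4.60, 4.65 and 4.62 at 6 h, 4.93, 5.01 and 4.71 at 24 h and 4.74, 4.72 and 4.72 at 120 h, and it was detected on 1 sham array and on 2 arrays at 24 h there. Medulla arrays read 5.97, 5.73 and 10.59 in sham, 6.55, 5.58 and 5.62 at 6 h, 6.62, 6.66 and 6.04 at 24 h and 5.20, 5.56 and 5.80 at 120 h. One array, sham medulla replicate 3, was far above all others. The sham medulla to sham cortex difference of 2.65 ± 0.75 was not called (adjusted p = 0.0843), and its size rested on that array. Without sham medulla replicate 3 the difference was 1.07 (adjusted p = 0.0625), and without replicate 1 it was 3.37 (adjusted p = 0.0129). The difference of -0.99 in medulla at 24 h against sham, not called, was 0.59 without sham medulla replicate 3. The mean of 7 adipocyte markers was 8.94 on sham medulla replicate 3, 6.86 and 7.67 on replicates 1 and 2, and between 5.89 and 6.25 in sham cortex. Its part in the Ucp1 level was not tested. Ucp3 was detected on 4 arrays only, and its differences, the lowest of them -0.27, were not called.

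**Figure D5:**
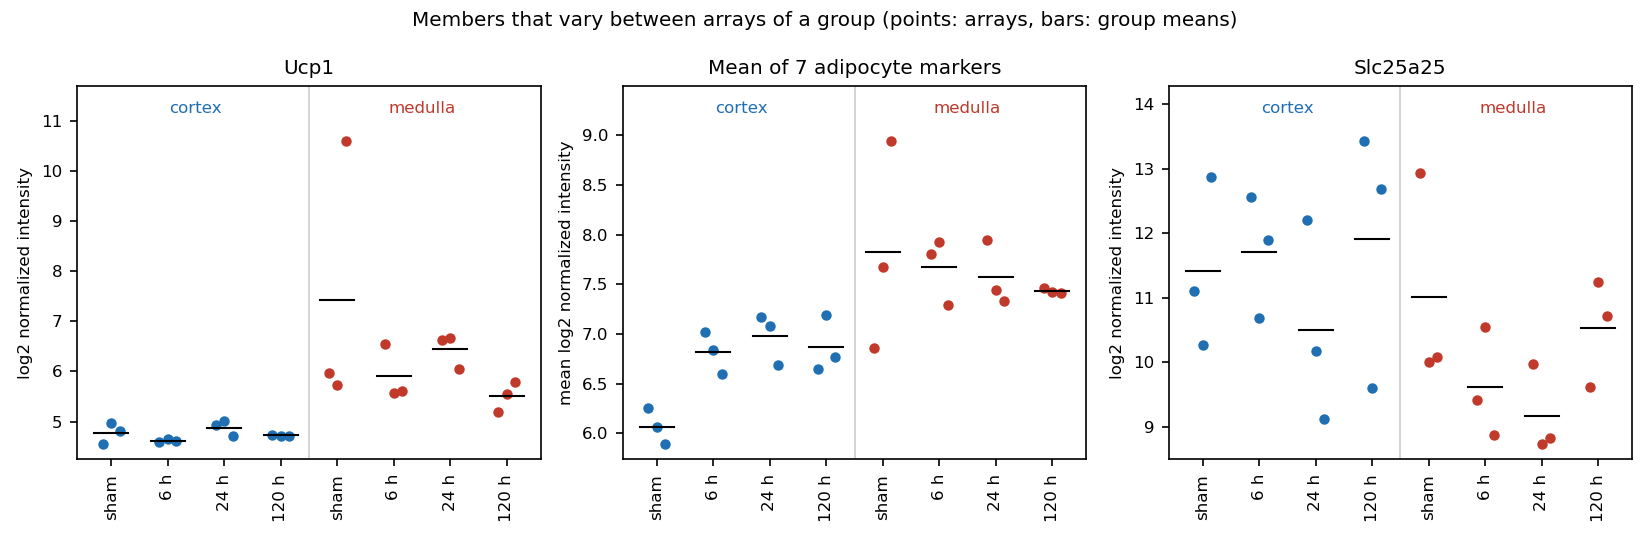
Log2 normalized intensity (vertical axes) of Ucp1, of the mean of 7 adipocyte markers and of Slc25a25 on every array by region and time; points are arrays and bars are means of 3 arrays. Ucp1 and the adipocyte mean are both highest on sham medulla replicate 3 (10.59 and 8.94), and Slc25a25 spreads from 9.61 to 13.43 in cortex at 120 h.

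Among the dicarboxylate carriers, Slc25a11, which exchanges oxoglutarate for malate in the malate-aspartate shuttle, fell at 24 h in both regions. In cortex it was 12.20, 12.19 and 11.95 in sham, 11.51, 10.54 and 11.78 at 6 h, 11.28, 11.26 and 10.78 at 24 h and 12.11, 11.71 and 11.86 at 120 h. The medulla values were 12.30, 11.94 and 11.79 in sham, 11.09, 11.44 and 10.10 at 6 h, 11.23, 10.87 and 10.57 at 24 h and 12.01, 11.36 and 11.46 at 120 h. At 6 and 24 h no injured array reached its region's sham arrays, and at 120 h the groups overlapped. The cortex difference at 24 h was -1.01 ± 0.32 (adjusted p = 0.0234). In medulla the differences were -1.13 ± 0.32 at 6 h (adjusted p = 0.00941) and -1.12 ± 0.32 at 24 h (adjusted p = 0.011). The cortex call was lost without sham cortex replicate 1 or 2 or 24 h cortex replicate 3. The 6 h medulla call was lost without 6 h medulla replicate 3, where the difference was -0.74, and the 24 h medulla call without sham medulla replicate 1 or 24 h medulla replicate 3.

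Slc25a21, which carries oxoadipate formed in lysine and tryptophan breakdown, was called lower in medulla and not in cortex. In cortex it was 7.17, 6.42 and 6.47 in sham, 7.46, 7.28 and 7.47 at 6 h, 7.09, 7.50 and 6.70 at 24 h and 7.0, 6.81 and 7.17 at 120 h. In medulla it was 7.53, 7.27 and 6.90 in sham, 6.53, 6.48 and 6.22 at 6 h, 6.71, 6.23 and 6.62 at 24 h and 6.91, 5.80 and 6.47 at 120 h. The 6 h cortex arrays were all above sham cortex, while all medulla arrays at 6 and 24 h were below sham medulla. The medulla differences were -0.82 ± 0.26, -0.71 ± 0.26 and -0.83 ± 0.26 (adjusted p = 0.0204, 0.0427 and 0.0376), and those in cortex were 0.71 ± 0.26, 0.41 ± 0.26 and 0.30 ± 0.26. The medulla calls were lost without sham medulla replicate 1 or 6 h medulla replicate 3 at 6 h, without sham medulla replicate 1 or 2 or 24 h medulla replicate 2 or 3 at 24 h and without sham medulla replicate 1 or 2 or 120 h medulla replicate 2 or 3 at 120 h. Without 120 h medulla replicate 2 the 120 h difference was -0.54.

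Slc25a1, the citrate carrier that supplies acetyl units for lipid synthesis, rose in cortex by 0.73 at 6 h (adjusted p = 0.011) and 0.66 at 24 h (adjusted p = 0.0151). These calls were lost without sham cortex replicate 1 or 6 h cortex replicate 2, and without sham cortex replicate 1 or 24 h cortex replicate 2. In medulla its differences were -0.15, 0.07 and -0.16, with none called. Slc25a10, the dicarboxylate carrier, fell in medulla at 6 h (-1.02 ± 0.34) and 24 h (-1.01 ± 0.34; adjusted p = 0.025 and 0.0279). Without sham medulla replicate 1 these differences were -0.62 and -0.61 and were not called. The 6 h call was also lost without 6 h medulla replicate 3, and the 24 h call without 24 h medulla replicates 1 or 3.

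Of the amino acid carriers, Slc25a15, the ornithine carrier of the urea cycle, fell in medulla at all 3 times. In cortex it was 11.89, 11.61 and 11.73 in sham, 10.83, 10.46 and 11.44 at 6 h, 10.62, 10.70 and 10.60 at 24 h and 11.73, 11.09 and 11.21 at 120 h. For medulla the values were 11.55, 10.28 and 10.83 in sham, 9.03, 9.72 and 8.73 at 6 h, 9.35, 8.87 and 8.63 at 24 h and 10.26, 9.61 and 9.93 at 120 h. Injured medulla arrays were all below sham medulla, though at 120 h by a small margin, and cortex overlapped sham at 120 h only. The medulla differences were -1.72 ± 0.31, -1.94 ± 0.31 and -0.95 ± 0.31 (adjusted p = 0.00045, 0.000187 and 0.0459). In cortex only the 24 h difference was called (-1.10 ± 0.31, adjusted p = 0.0127), and it was lost without sham cortex replicate 1. The 120 h medulla call was lost without sham medulla replicate 1 or 3 or 120 h medulla replicate 2 or 3, and the difference without sham medulla replicate 1 was -0.62.

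Slc25a29, a carrier of basic amino acids, rose in 3 of the 6 comparisons. In cortex it was 7.99, 7.70 and 7.80 in sham, 8.83, 9.21 and 8.56 at 6 h, 8.63, 8.31 and 7.71 at 24 h and 8.92, 7.97 and 8.30 at 120 h. Medulla arrays read 7.56, 8.57 and 8.11 in sham, 9.0, 10.25 and 9.48 at 6 h, 9.30, 9.07 and 8.94 at 24 h and 8.56, 9.07 and 9.17 at 120 h. The 6 h arrays of both regions and the 24 h medulla arrays were above all sham arrays of their region, and the other groups overlapped sham. The differences were 1.03 ± 0.32 in cortex at 6 h (adjusted p = 0.0285), 1.5 ± 0.32 in medulla at 6 h (adjusted p = 0.00151) and 1.02 ± 0.32 in medulla at 24 h (adjusted p = 0.0192). The cortex call was lost without any single sham cortex array or 6 h cortex replicate 1 or 2, and the 24 h medulla call without sham medulla replicate 1 or 24 h medulla replicate 1. Slc25a38, which supplies glycine for heme synthesis, fell in medulla at 24 h (-0.78 ± 0.25, adjusted p = 0.023) and 120 h (-0.91 ± 0.25, adjusted p = 0.0211). These calls were lost without sham medulla replicate 1 or 24 h medulla replicate 2 or 3, and without sham medulla replicate 1 or 120 h medulla replicate 2 or 3. Slc25a2, Slc25a22 and Slc25a26 (ornithine, glutamate and S-adenosylmethionine carriers) were dim and not called, with differences from -0.28 to 0.41.

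Slc25a20, the carnitine-acylcarnitine carrier that brings fatty acids in for oxidation, rose at 24 h in cortex (0.77 ± 0.18, adjusted p = 0.00374) and medulla (0.58 ± 0.18, adjusted p = 0.018). The medulla call was lost without sham medulla replicate 1 or 24 h medulla replicate 2. It was also the one member called between successive times: from 24 h to 120 h in medulla it fell by 0.88 ± 0.18 (adjusted p = 0.00971, called in 3.91% of all probes), a call lost without 120 h medulla replicate 2. Without 24 h medulla replicate 1, 3 members were called in that step. The corresponding cortex difference was -0.60 ± 0.18 (adjusted p = 0.0863). In the other steps 0 members were called by limma: cortex 6 to 24 h (all probes 1.5%), cortex 24 to 120 h (2.34%) and medulla 6 to 24 h (1.4%). An unadjusted limma p under 0.05 was found in these steps for 4, 9 and 1 of 36 members. Over all 14390 probes it was found for 1650, 2211 and 1675. Without 6 h cortex replicate 2, the step from 6 to 24 h in cortex had 1 call, Slc25a34 at -1.37 (adjusted p = 0.0118). For these steps, calls with an array left out were not counted over all tested probes.

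Members with no assigned substrate here included 1 with several calls. Slc25a34 in cortex was 6.91, 6.54 and 6.89 in sham, 7.51, 5.43 and 7.29 at 6 h, 6.14, 5.99 and 5.94 at 24 h and 7.05, 6.16 and 6.77 at 120 h. In medulla it was 7.09, 6.77 and 6.08 in sham, 4.83, 5.20 and 4.57 at 6 h, 4.91, 4.64 and 4.71 at 24 h and 5.49, 4.91 and 5.39 at 120 h, with 1 of 3 arrays detecting it at 6 h and 1 of 3 at 24 h, so these levels are at the floor of the assay. Injured medulla arrays were all below sham medulla, and 6 h cortex replicate 2 was below all other cortex arrays. The medulla differences were -1.78 ± 0.38, -1.90 ± 0.38 and -1.39 ± 0.38 (adjusted p = 0.00165, 0.00115 and 0.0219), and in cortex they were -0.04 ± 0.38, -0.75 ± 0.38 and -0.12 ± 0.38, none called. Without 6 h cortex replicate 2 the 6 h cortex difference was 0.62, in the opposite direction (adjusted p = 0.185). With undetected arrays raised to the lowest detected level, the medulla differences at 6 and 24 h were -1.65 and -1.77 (adjusted p = 0.00312 and 0.00207). The 120 h medulla call was lost without sham medulla replicate 1 or 2 or 120 h medulla replicate 2 or 3. Slc25a35 and Slc25a46, the latter a protein of the outer membrane, were not called, with differences from -0.60 to 0.19.

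Whether the carriers differed between the regions was tested directly. In sham rats 0 of 36 members were called between medulla and cortex by limma, against 1.39% of all probes. An unadjusted p under 0.05 was found for 1672 of 14390 probes and for 4 of 36 members. These members were Ucp1 (2.65), Slc25a15 (-0.86), Slc25a4 (0.43) and Slc25a52 (-0.68). Without sham medulla replicate 1, 4 were called, namely Ucp1 and Ucp2 higher in medulla (3.37 and 0.98) and Slc25a23 and Slc25a15 lower (-1.46 and -1.19). The size of the Ucp1 value then rests on sham medulla replicate 3, as described above. The share of all probes called without replicate 1, the array nearest to sham cortex, was not counted. The 4 calls therefore cannot be read as particular to the members. For the response to injury, 0 members were called as different between the regions at 6, 24 or 120 h. The shares of all probes called were 0.202%, 0.0556% and 0.0139%. An unadjusted p under 0.05 was found for 1656, 1413 and 813 of 14390 probes and for 6, 5 and 4 of 36 members. The largest at 6 h was Slc25a34, whose response in medulla minus that in cortex was -1.75 ± 0.54 (95% interval -2.88 to -0.61, adjusted p = 0.194). Without 6 h cortex replicate 2 it was -2.40 (adjusted p = 0.0117), and with undetected arrays raised to the lowest detected level it was -1.62. For Slc25a21 the difference of responses was -1.53 ± 0.37 at 6 h (95% interval -2.30 to -0.76, adjusted p = 0.102), -1.12 ± 0.37 at 24 h (adjusted p = 0.236) and -1.14 ± 0.37 at 120 h (adjusted p = 0.737). For Slc25a51 it was -0.16 at 6 h (95% interval -1.21 to 0.90) and for Slc25a40 -0.08 (-1.03 to 0.87).

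Some calls also ended when the values were processed another way. With a fit of the compared groups alone, those of Slc25a51, Slc25a40, Slc25a14, Slc25a1 and the second Slc25a30 probe ended in cortex at 6 h. With that fit the calls of Slc25a40 and Slc25a16 ended in cortex at 120 h. In medulla the same fit ended those of Ucp2, Slc25a11 and Slc25a10 at 6 h, Slc25a23, Slc25a16, Slc25a10, Slc25a32 and Slc25a38 at 24 h, and Slc25a15, Slc25a16 and Slc25a21 at 120 h, and the step of Slc25a20 from 24 to 120 h. Median scaling ended the calls of Slc25a51 and Slc25a40 at 120 h in both regions and of Slc25a11 in cortex at 24 h. In medulla it ended those of Slc25a52, Slc25a21, Slc25a10, Slc25a32, Slc25a38 and Slc25a39 at 24 h and of Slc25a15 and Slc25a21 at 120 h. Testing all probes, with no filter on dim ones, ended those of Slc25a14 in cortex at 6 h and of Slc25a51 and Slc25a23 in cortex at 120 h. In medulla it ended those of Slc25a21, Slc25a17 and Slc25a32 at 24 h and of Slc25a51, Slc25a40, Slc25a15 and Slc25a21 at 120 h. A stricter filter ended the call of Slc25a17 in medulla at 24 h.

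The members called in both regions were counted for each time, beside the same count over all tested probes. At 6 h, the 6 probes lower in cortex (100% of them) were among the 13 lower in medulla (46.2% of those): Slc25a14, Slc25a23, Slc25a30, Slc25a40, Slc25a51 and Slc25a52. Of all probes lower at 6 h, 73.2% of those in cortex and 47.6% of those in medulla were lower in both regions. Slc25a29 was higher in both at 6 h, 1 of 2 in each region. At 24 h, 10 were lower in both, which is 90.9% of 11 in cortex and 66.7% of 15 in medulla, beside 63.4% and 55.4% of all probes lower there. Slc25a20 and Ucp2 were higher in both at 24 h. At 120 h, 4 were lower in both, 66.7% of 6 and 50% of 8, beside 47.5% and 22.1% of all probes. Whether the members' overlap differs from that of all probes was not tested. They were Slc25a16, Slc25a30, Slc25a40 and Slc25a51.

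The genes around the carriers were described through 8 lists, beside all 9799 tested genes. In cortex at 24 h, 14% of all tested genes were called higher and 13.3% lower, and in medulla at 24 h 19.8% and 15.5%. Of 11 proteins on the import route of the carriers, from the Tomm proteins of the outer membrane to Timm22, 1 was higher and 0 lower in cortex at 24 h. In medulla 1 was higher and 2 lower at 24 h. The 2 lower were Tomm proteins of the outer membrane, and the 1 higher was Timm22 (0.57 ± 0.19, adjusted p = 0.0256). Timm22, the channel of the carrier insertion complex, rose at 6 h in medulla (0.78 ± 0.19, adjusted p = 0.00367). Timm13, a chaperone of the intermembrane space, was 1.05 ± 0.33 higher in cortex at 24 h (adjusted p = 0.0224), a call lost without sham cortex replicate 1 or 24 h cortex replicate 2, with a difference of 0.63 without the former. Of 18 other mitochondrial transporters and channels, 2 were lower and 1 higher in cortex at 24 h, and 5 were lower and 2 higher in medulla. Mcu, the pore of the calcium uniporter, fell at 24 h in cortex (-1.52 ± 0.26, adjusted p = 0.000364), and Sfxn1, a serine transporter, fell at 6 h in medulla (-2.52 ± 0.45, adjusted p = 0.000423).

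Shuttle and citric acid cycle enzymes, which use what the carriers move, fell more often than they rose at 24 h. Of 13 tested, 4 were lower and 1 higher in cortex at 24 h, and 6 lower and 1 higher in medulla. Idh2, mitochondrial isocitrate dehydrogenase, fell by 1.83 in cortex (adjusted p = 0.000243), and Gpd1, the cytosolic glycerol phosphate dehydrogenase, fell by 2.36 in medulla (adjusted p = 1.68e-05) at 24 h. Of 8 ornithine and urea cycle enzymes, 2 were lower and 2 higher in cortex at 24 h and 4 lower and 2 higher in medulla, with a median difference of -1.25. Among them Ass1, argininosuccinate synthase (-3.04 ± 0.40, adjusted p = 3.84e-05), and Oat, ornithine aminotransferase (-2.41 ± 0.40, adjusted p = 0.000231), fell in medulla at 24 h, where the ornithine carrier Slc25a15 also fell. The proximal tubule markers, called lower in medulla 12 of 12 times at that time, moved with these genes, and their part was not tested.

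Carnitine partners and cofactor enzymes gave counts of 0 to 2 per direction at 24 h, too few genes to be read against the shares of all genes given above. Of 7 carnitine shuttle partners, 1 was lower and 0 higher at 24 h in each region, while at 6 h Acsl1, an acyl-CoA synthetase, fell in cortex (-1.90 ± 0.41, adjusted p = 0.00339) and Slc22a5, the carnitine importer of the cell surface, fell in medulla (-1.67 ± 0.24, adjusted p = 8.69e-05). Of 8 heme and iron-sulfur enzymes, 1 was lower in cortex and 2 in medulla at 24 h, with 0 and 1 higher. Nfs1, the cysteine desulfurase of iron-sulfur cluster assembly, fell in medulla (-2.32 ± 0.36, adjusted p = 0.000166). Ppox, an enzyme of heme synthesis, differed by -0.75 ± 0.19 in medulla at 120 h (adjusted p = 0.0137), a call lost without sham medulla replicate 1 or 120 h medulla replicate 2.

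Regulators and dynamics genes were counted last. Of 14 regulators of mitochondrial biogenesis, 2 were lower in cortex and 4 in medulla at 24 h, and 0 were higher in either. Esrrg, a nuclear receptor for genes of oxidative metabolism, fell in medulla at 6 h (-2.02 ± 0.39, adjusted p = 0.000763). Pprc1, a coactivator of the PGC-1 family, was 0.88 ± 0.28 higher in medulla at 6 h (adjusted p = 0.0221), a call lost without sham medulla replicate 2 or 6 h medulla replicate 3, with 0.55 without the latter. Of 9 genes of mitochondrial dynamics and mitophagy, 4 were lower in cortex at 24 h with 0 higher, and 3 lower in medulla with 1 higher. Mfn1, which fuses outer membranes, fell in cortex at 24 h (-1.84 ± 0.29, adjusted p = 0.000146), where its relative Mfn2 was not called (0.26 ± 0.20). In medulla at 24 h Mfn1 differed by -1.51 ± 0.29 and Mfn2 by 0.74 ± 0.20 (adjusted p = 0.000728 and 0.00768). Bnip3, a mitophagy receptor, differed by -1.45 ± 0.45 in medulla at 6 h (adjusted p = 0.0174), a call lost without sham medulla replicate 1 or 6 h medulla replicate 3, with -0.82 without the latter.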

How the data were processed

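Renal cortex and medulla RNA of 24 rat samples was converted to biotinylated cRNA and measured on Illumina arrays, per the labels. Per the file headers, the authors deposited 1 summary intensity per probe and array on a linear scale, with a detection value between 0 and 1, a fraction that rises with intensity (Spearman 0.921), so detection p was taken as 1 minus it. A deposited series table of log2 values by the authors was used as an alternative. No label or header names the scanner software or how beads were summarised.

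Intensities were background corrected and quantile normalized with neqc in limma 3.58.1 (R 4.3.3; offset 16). Probes with detection p under 0.05 on at least 3 of 24 arrays were kept, 14390 of 22523. All 8 groups entered 1 limma fit (16 residual and 3.34 prior degrees of freedom), with 14 comparisons, Benjamini-Hochberg adjustment within each and a threshold of 0.05. An exact permutation test of 3 against 3 arrays cannot go below p = 0.1. The code was run on simulated data with independent noise and few changed probes, which does not test it on data like these. No 2 arrays held identical values (0 pairs).

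Probe symbols came from the platform annotation, and promoters from RefSeq. Protein sequences were not used here. Members and lists were chosen with earlier results of these data known. Every array is given for members called in at least 3 of 6 comparisons with sham, for Ucp1, Slc25a4 and Slc25a5, and for a disagreeing Slc25a30 probe. Other members appear by range, and up to 2 called genes per list are named, with Mfn2 added beside Mfn1. Alternatives were another offset, quantile normalization alone, the authors' log2 values, median scaling, and no or a stricter filter on dim probes. The fit was also run with a replicate block, and with a random block of arrays of the same time and number. It was run on the compared groups alone and with each array left out in turn. For called members not detected on every array compared, undetected arrays were also raised to the lowest detected level. Replicate numbers were not taken to pair cortex with medulla, since of 12 pairs with the same number 3 had a correlation of deviations over 0.1. Those 3 were all the 24 h pairs (0.262 to 0.398, against -0.296 to -0.00712 for differently numbered arrays). No same-numbered pair of the sham, 6 h or 120 h arrays was over it. Among differently numbered pairs of those arrays, 2 of 6, 2 of 6 and 3 of 6 were over it, the highest at 0.231, 0.409 and 0.343. Whether cortex and medulla arrays share rats is not given by the labels and was not tested.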

Additional observations from a re-analysis of the deposited data

How the results depend on the processing

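All called differences of the members, and all called differences from sham of the list genes named in the text except Mfn2, were followed under the alternatives. Not all of them are printed above. Of these 122 differences, 0 reversed direction under the alternatives run and 51 kept their call under every one. Of 145 member differences from sham that were not called, 42 changed sign under at least 1 alternative. For the number of members called, a fit of the compared groups alone gave 3 in cortex at 6 h (8 in the fit of all groups), 1 in cortex from 24 to 120 h (0) and 0 in medulla from 24 to 120 h (1). With no filter on dim probes, medulla at 120 h gave 5 (9). An offset of 50 and the authors' series values each gave 1 in cortex from 24 to 120 h (0). The cause of these shifts was not tested, and no count over all probes was made under these settings. Leaving out 1 array at a time gave 5 to 12 in cortex at 6 h, 10 to 14 at 24 h and 1 to 4 at 120 h (8, 14 and 6 with all arrays). The same gave 11 to 16 in medulla at 6 h, 10 to 18 at 24 h and 2 to 9 at 120 h (15, 19 and 9). It gave 0 to 4 between the sham regions, 0 to 1 for the difference of responses at 6 h and 0 to 0 at 24 and 120 h. Between times it gave 0 to 1 in cortex from 6 to 24 h, 0 to 0 from 24 to 120 h, 0 to 0 in medulla from 6 to 24 h and 0 to 3 from 24 to 120 h. With the replicate block, the counts were 10, 14 and 6 in cortex and 16, 18 and 9 in medulla. The block left 0 members called for the difference of responses at 24 h, the time at which same-numbered arrays correlated. The numbers are not taken to pair the arrays, since the correlation of same-numbered cortex and medulla arrays ran from -0.258 to 0.398. A random block of cortex and medulla arrays of the same time and number (correlation 0.0339) gave the same counts as the fit without it in all 14 comparisons. The labels do not say that a number marks a rat, so this block cannot show whether shared rats matter. A slide block was not run, since no slides are given. Median scaling moved the median of all probes by at most 0.076. The stricter filter kept 30 members of 11216 probes. Dim members such as Slc25a14, Slc25a22 and Ucp3 are close to background, which limits the changes that can be seen in them.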
